A study of Rattus norvegicus with 2 samples.

Results

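Matricellular proteins are secreted proteins that sit in the extracellular matrix and act mainly on how cells attach and signal rather than as structural fibres. The 10 genes described here are the 4 thrombospondins Thbs1 to Thbs4, the cartilage oligomeric matrix protein Comp (the fifth thrombospondin), periostin (Postn), tenascin C (Tnc), Sparc, its relative Sparcl1, and fibronectin (Fn1), a fibril-forming matrix protein read together with them. They were taken by name, with earlier results of these data known, among the 13706 protein-coding genes with a read in either library, and no threshold on their values was applied. All 10 had reads in both libraries. The tissue was the myocardium of spontaneously hypertensive rats, an inbred strain with high blood pressure, after 12 weeks of either KXH, the high dose (9.6 g/kg, into the stomach) of the herbal Jiangya Kangxian formula, or distilled water. Both groups were hypertensive rats, so no normotensive level is available to set beside them, and the labels give neither age nor sex. There was 1 library per group, and whether it came from a single heart or a pool is not stated.

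In the heart many of these genes are made mainly by fibroblasts and cells of the vessel wall, and several are known for being induced by pressure overload, infarction or inflammation. Thbs1 and Thbs2 form trimers that restrain blood vessel growth through the receptor Cd36, bind the receptor Cd47, and, in the case of Thbs1, activate latent transforming growth factor beta (TGF-beta). Thbs3, Thbs4 and Comp form pentamers, and Thbs4 is known from mouse heart as a stress-induced protein that binds the endoplasmic reticulum sensor Atf6. Sparc binds collagen and takes part in its maturation, periostin and tenascin C mark activated fibroblasts and remodelling matrix, and fibronectin is the scaffold on which other matrix proteins are laid down.

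With KXH, Thbs4 was 1.63-fold, Thbs1 1.27-fold and Postn 1.21-fold higher than with water, whereas Tnc was 1.78-fold and Fn1 1.19-fold lower. Sparc and Sparcl1, which together held most of the reads of the 10 genes, lay within 1.05-fold of the water level. With 1 library per group no test between the treatments is possible. Ratios are therefore given with a 95% exact interval that covers counting error only, and animal-to-animal variation is in none of them. The protein-coding tables held 14.1 and 15.1 M reads (M, 1000000) for KXH and water, of which the 10 genes took 0.163% and 0.167%. All 8 cardiomyocyte markers used to check the tissue label were abundant, with Actc1, the cardiac actin, at 10080 RPKM with KXH and 8890 RPKM with water (RPKM, reads per kilobase of listed length per M reads of the table).

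The promoters of 4 members are shown because these genes lay at least 1.2-fold apart with more than 50 reads in each library, which leaves out Comp. They are RefSeq sequences of the GRCr8 build, 250 bases before to 50 bases after the annotated start, read along the gene's own strand. Thbs1 lies at chr3:125510000-125510299 on the plus strand, Thbs4 at chr2:25760296-25760595 on the minus strand, Postn at chr2:140677811-140678110 on the plus strand and Tnc at chr5:82476082-82476381 on the minus strand. Capitals mark matches, on either strand, to the TATA box TATAAA, the AP-1 site TGANTCA, the GC box GGGCGG, the TEAD core GGAATG, the CCAAT box CCAAT and the Smad-binding letters CAGACA.
Thbs1: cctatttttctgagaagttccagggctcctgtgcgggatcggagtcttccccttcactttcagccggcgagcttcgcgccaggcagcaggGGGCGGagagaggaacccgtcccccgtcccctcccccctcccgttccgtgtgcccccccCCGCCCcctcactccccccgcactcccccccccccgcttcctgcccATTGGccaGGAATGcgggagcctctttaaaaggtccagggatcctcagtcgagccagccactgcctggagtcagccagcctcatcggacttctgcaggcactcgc
Thbs4: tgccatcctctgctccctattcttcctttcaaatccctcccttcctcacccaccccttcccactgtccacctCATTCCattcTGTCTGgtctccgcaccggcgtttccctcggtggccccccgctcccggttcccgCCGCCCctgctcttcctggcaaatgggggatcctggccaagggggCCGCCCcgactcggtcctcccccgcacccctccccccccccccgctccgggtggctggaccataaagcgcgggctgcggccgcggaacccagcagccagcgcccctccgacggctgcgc
Postn: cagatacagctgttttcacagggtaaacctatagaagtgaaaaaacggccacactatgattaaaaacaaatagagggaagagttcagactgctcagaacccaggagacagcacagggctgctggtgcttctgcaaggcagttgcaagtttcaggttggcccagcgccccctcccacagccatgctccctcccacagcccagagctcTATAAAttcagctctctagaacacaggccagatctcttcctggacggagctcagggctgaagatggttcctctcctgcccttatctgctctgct
Tnc: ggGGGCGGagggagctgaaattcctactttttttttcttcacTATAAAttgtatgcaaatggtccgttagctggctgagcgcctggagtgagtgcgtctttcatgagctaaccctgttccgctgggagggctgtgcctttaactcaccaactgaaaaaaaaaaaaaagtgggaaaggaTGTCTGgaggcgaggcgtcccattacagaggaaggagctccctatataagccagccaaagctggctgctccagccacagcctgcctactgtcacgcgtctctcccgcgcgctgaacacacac
No match overlapped another. GGAATG, the core letters bound by TEAD factors of the Hippo pathway, began 47 bases before the start in Thbs1 and, on the opposite strand, 178 bases before it in Thbs4. It was also in the Sparc window, so 3 of the 8 members with a promoter sequence held it, against 14.2% of all 33469 promoters. GGGCGG was in 4 of the 8 (Thbs1, Thbs3, Thbs4 and Tnc), against 33.1% of all promoters, and CAGACA in 4 of the 8 (Thbs4, Tnc, Sparc and Comp), against 21.1%. CCAAT was in 2 (Thbs1 and Thbs3), against 37.5%, and TATAAA in 2, 44 bases before the start in Postn and 208 bases before it in Tnc, against 14.2%. TGANTCA was in none of the 8 windows, against 7.33% of all promoters. The Thbs1 and Thbs4 windows were richer in G and C (67.0% and 70.0%) than those of Postn (52.0%) and Tnc (52.3%). A match to such short letters is a description of the sequence and no evidence of binding.

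The levels of the 10 genes, per length, followed the same order in both libraries. Sparc stood highest, at 436 RPKM with KXH and 447 RPKM with water, above 98.8% and 98.9% of the genes listed in each. Sparcl1 followed at 121 and 127 RPKM, and Fn1 at 21.7 and 25.7 RPKM. Thbs2 (19.4 RPKM in KXH, 17.5 in water) and Thbs1 (18.2 and 14.4) came next, with counting intervals that overlapped in KXH and not in water. Thbs4 (9.47 in KXH, 5.82 in water) stood above Postn (6.69 and 5.52), and there the intervals were apart in KXH and overlapped in water. Thbs3, Tnc and Comp closed the order at 3.74, 0.670 and 0.266 RPKM with KXH, against 3.84, 1.19 and 0.385 RPKM with water.

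**Figure D1:**
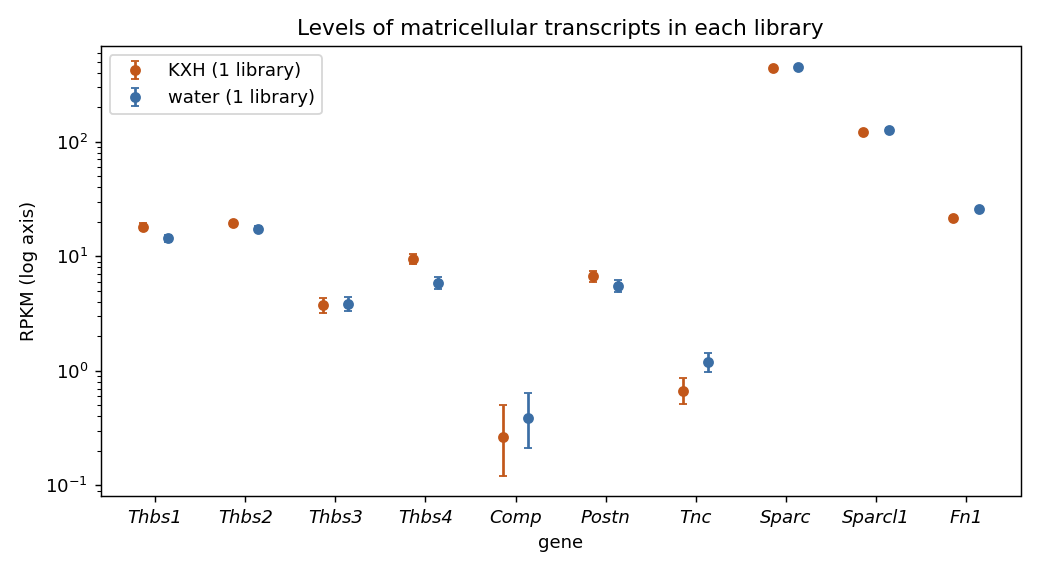
RPKM (log axis) of the 10 genes in the KXH (left of each pair) and water (right) libraries, with exact Poisson 95% intervals that cover counting error only. Sparc at 436 and 447 RPKM stands far above Comp at 0.266 and 0.385 RPKM, and the intervals of the pair are apart for Thbs1, Thbs2, Thbs4, Tnc and Fn1.

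Thbs4 was the member farthest above the water level. It had 429 reads with KXH and 283 with water, 9.47 against 5.82 RPKM, a ratio of 1.63 (95% interval 1.40 to 1.90). Among the 10467 genes that averaged 1 RPKM or more, its ratio on the log2(RPKM + 1) scale, 0.62, was the 43rd highest. Its level stood above that of 53.5% of the genes listed with KXH, against 42.7% of those listed with water.

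The trimeric thrombospondins were both higher, Thbs1 by more than Thbs2. Thbs1 had 923 reads with KXH and 783 with water, 1.27-fold higher per length and depth (1.15 to 1.39) and the 364th highest of the 10467 ratios. Thbs2 had 1559 and 1511 reads and was 1.11-fold higher (1.03 to 1.19), a direction that turned (log2 ratio -0.12) when ratios were set against the median of 6 fibroblast markers, Pdgfra, Tcf21, Pi16, Dpt, Mfap5 and Gsn, and did not (0.02) against the whole list of 9, which adds Lum, Dcn and Col1a1. The reads of Thbs1 covered 85.2% of its listed length with KXH and 85.4% with water, although the median was 98.9% among genes of 500 to 1500 reads in either library. Only 2.28% and 2.53% of those genes were covered less. The lower coverage of Thbs1 was alike in both libraries.

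For the other pentameric thrombospondins no difference was detectable at this depth. Thbs3, which is expressed at low level in many tissues, had 166 reads with KXH and 183 with water, and its ratio was 0.974 (0.785 to 1.21). Comp, a protein of cartilage and tendon, had 9 and 14 reads, and its ratio of 0.690 carried an interval of 0.264 to 1.71. Of 10 other tendon, cartilage and valve markers, 4 (Tnmd, Mkx, Cilp2 and Acan) had no row under these symbols, so their level is unknown. Of the 6 listed, 4 averaged at least 1 RPKM. The tendon factor Scx, the highest of the 6, stood at 15.2 RPKM in KXH and 15.1 in water. Below 1 RPKM were Col2a1 (2 reads in each library) and Hapln1 (10 reads in KXH and 11 in water).

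With these ratios, the make-up of the thrombospondin transcripts differed. Thbs4 took 18.6% of the summed thrombospondin RPKM with KXH and 13.9% with water. Thbs2 took 37.9% and 41.7%, and Thbs1 35.6% and 34.3%. Thbs3 took 7.33% and 9.17%, and Comp less than 1% in each. The summed thrombospondin level was 51.0 RPKM in KXH and 41.9 RPKM in water, 1.22 times as high. A quotient of 2 genes in the same library does not depend on how the libraries are scaled. The Thbs4 to Thbs3 quotient was 2.53 in KXH and 1.51 in water, 1.67-fold higher with a counting interval of 1.28 to 2.18. The Thbs1 to Thbs2 quotient was 0.940 and 0.822, 1.14-fold higher (1.01 to 1.29), and the Comp to Thbs4 quotient 0.0280 and 0.0661, with an interval for their ratio of 0.160 to 1.07.

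**Figure D2:**
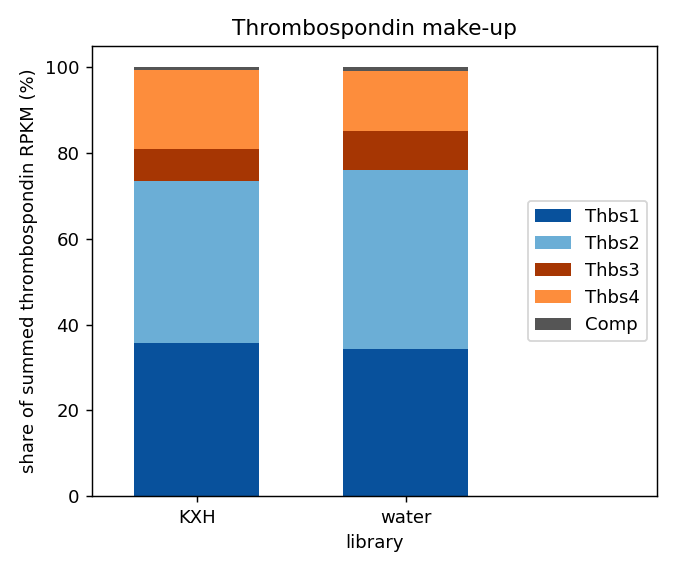
Share of each thrombospondin in the summed thrombospondin RPKM (percent, bars from 0) in the KXH (left) and water (right) libraries, 1 each. The Thbs4 segment is 18.6% in KXH and 13.9% in water, and the Thbs2 segment 37.9% and 41.7%.

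Periostin and tenascin C, which are often read together as signs of active matrix remodelling, lay on opposite sides of 1 in ratio. Postn, a protein of activated fibroblasts that binds collagen and the procollagen proteinase Bmp1, had 299 reads with KXH and 265 with water and was 1.21-fold higher (1.02 to 1.44), a direction that likewise turned against the 6 fibroblast markers (log2 ratio -0.027) and not against the 9 (0.12). Tnc, a large adhesion-modulating glycoprotein, had 58 reads with KXH and 111 with water, 0.670 against 1.19 RPKM, and was 1.78-fold lower (1.29 to 2.49). The Tnc interval is wide because its long transcript (6155 bases listed) held few reads. The Tnc to Postn quotient was 0.1001 in KXH and 0.216 in water, 2.16-fold lower (1.49 to 3.15). The Tnc interval stayed well below 1, whereas that of Postn began just above it.

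Fibronectin was lower by a smaller factor but with many more reads. Fn1 had 2543 reads with KXH and 3238 with water, 21.7 against 25.7 RPKM. This was 1.19-fold lower (1.13 to 1.25) and the 1124th lowest of the 10467 ratios. It was just short of the 1.2-fold mark used for counting below. Relative to type I collagen (Col1a1) Fn1 was lower as well: the Fn1 to Col1a1 quotient was 0.381 in KXH and 0.484 in water, 1.27-fold lower (1.19 to 1.36).

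Sparc and Sparcl1 had the most reads, and each lay within 1.05-fold of the water level. Sparc had 12447 reads with KXH and 13696 with water, a ratio of 0.976 (0.953 to 1.0002). Sparcl1, also called hevin, had 4543 and 5120 reads and a ratio of 0.953 (0.915 to 0.992). Their quotient, Sparc to Sparcl1, was 3.60 in KXH and 3.51 in water, and the interval of the change, 0.977 to 1.07, includes 1. Per unit of Col1a1 or Col3a1 transcript Sparc was slightly lower. Its quotient to Col1a1 was 7.65 in KXH and 8.40 in water (1.098-fold lower, 1.05 to 1.15), and that to type III collagen (Col3a1) 2.17 and 2.38 (1.097-fold lower, 1.06 to 1.14). No quotient to the other listed fibrillar chains was computed. Their own ratios were 1.02 for Col1a2, 1.02 for Col5a1 and 0.949 for Col5a2. The 3 quotients to collagens were chosen after the values were seen, the 5 between relatives among the members by family.

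**Figure D3:**
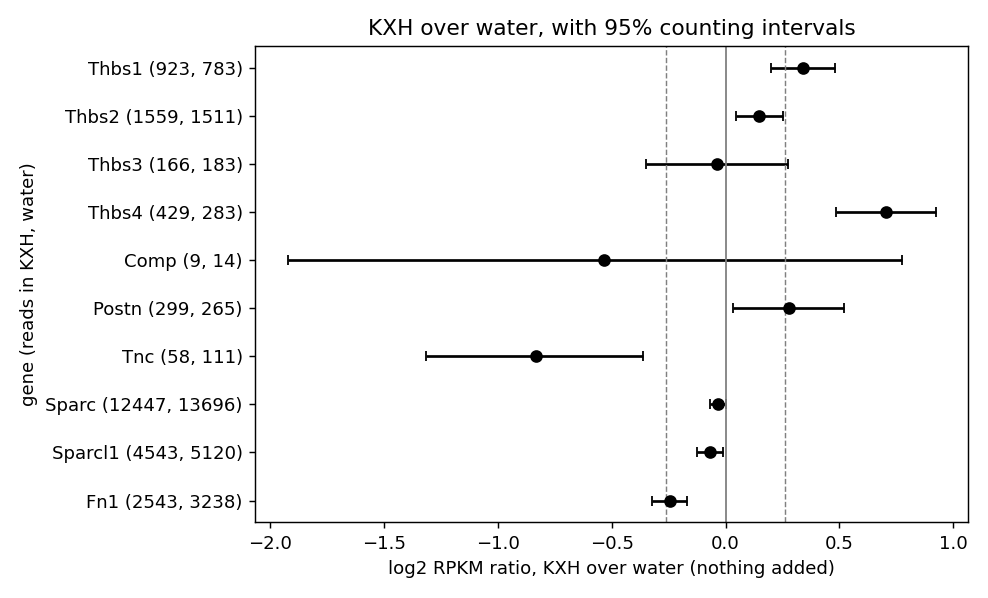
Log2 RPKM ratio of KXH over water for each of the 10 genes, with exact 95% intervals for counting error, the reads of both libraries beside the name, and dashed lines at 1.2-fold. Thbs4 (1.63-fold higher) and Tnc (1.78-fold lower) have intervals wholly outside the dashed lines, and Thbs3, Comp and Sparc have intervals that include 1.

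Counted together, 8 of the 10 members passed the filter of a mean of at least 1 RPKM, and Tnc (mean 0.932) and Comp (0.325) did not. Of those 8, 3 were at least 1.2-fold higher (Thbs1, Thbs4 and Postn) and 0 at least 1.2-fold lower, against 7.50% of all 10467 genes higher and 12.1% lower by that fold. With no filter the counts were 3 higher and 2 lower of 10, and the shares of all genes without the filter were not computed. Past 1.5-fold lay 1 of the 8, Thbs4, against 1.39% of all genes higher and 2.48% lower. The counting interval lay above 1 for 4 of the 8 and below 1 for 2, against 11.2% and 16.3% of all genes. The median log2 ratio was 0.06 over the 8 members and -0.03 over all 10, and that of all genes was -0.02. Its sign was not stable: leaving out Thbs1, Thbs2, Thbs4 or Postn from the 8 gave -0.03 each time, and totals without the 20 most abundant genes gave -0.02.

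**Figure D4:**
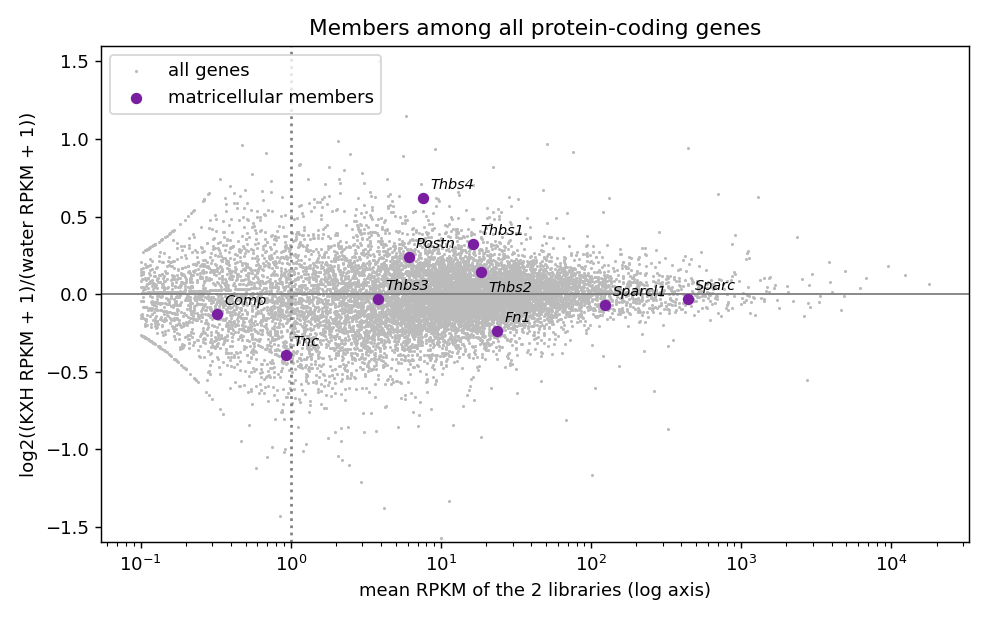
Log2((KXH RPKM + 1)/(water RPKM + 1)) against the mean RPKM of the libraries (log axis) for genes averaging 0.1 RPKM or more (grey), with the 10 members in purple and a dotted line at 1 RPKM. The axis ends at 1.6 either side of 0, which leaves out 3 genes. Thbs4 (0.62) and Thbs1 (0.32) lie above most genes of their level, Fn1 (-0.24) below most, and Sparc and Sparcl1 within 0.07 of 0.

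The genes around the members were read as 17 lists of partners and cell type markers, some of which share genes. Other matricellular proteins had a median log2 ratio of 0.16. Of 10, 3 were at least 1.2-fold higher and 2 lower, against 7.50% and 12.1% of all genes. Ctgf was 1.90-fold higher, and the lower genes were Spp1 (7.63-fold) and the proteoglycan Spock1 (23 reads in KXH and 65 in water, 2.63-fold lower, 1.61 to 4.44). Receptors and other binding proteins of the thrombospondins had ratios on the other side of 1 from Thbs1, Thbs2 and Thbs4, several only just. All 11 measured had ratios below 1, against 55.0% of all genes (median -0.18), and 4 were at least 1.2-fold lower, against 12.1%. The counting interval lay below 1 for 6 of the 11, against 16.3%, and those of Cd47, Cacna2d1, Sdc4, Itgb1 and Itgb3 included 1. Over those averaging 5 RPKM or more the median was -0.04. Itgav and Itga3 had no row under these symbols. Cd47, the receptor for the thrombospondin C-terminal region, was at 34.6 RPKM in KXH and 34.7 in water. The 4 were Cd36 (229 against 420 RPKM, 1.83-fold lower), Notch3 (1.30-fold, 1.22 to 1.38), the calcium sensor Stim1 (1.27-fold, 1.14 to 1.42) and Sdc1, named here after its value was seen (44 reads in KXH and 70 in water). Receptors of fibronectin, tenascin and periostin had a median of -0.02. Of 9, 0 were higher and 1 lower by 1.2-fold, against 7.50% and 12.1% of all genes. Itga5, the fibronectin receptor alpha chain, was 1.16-fold higher (1.09 to 1.22) while its ligand Fn1 was lower. The tenascin and fibronectin receptor chain Itga8 was 1.86-fold lower (1.37 to 2.55) on 64 reads in KXH and 128 in water, and Itgb3 was at 3.97 against 4.62 RPKM with an interval that includes 1.

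Collagens, proteoglycans and other matrix partners lay close to the water level. Their median was 0.02, with 0 of 18 at least 1.2-fold higher and 1 lower, against 7.50% and 12.1% of all genes. The counting interval lay above 1 for 7 of the 18 and below 1 for 0, against 11.2% and 16.3% of all genes. Fibrillin 1 (Fbn1) was 1.15-fold (1.102 to 1.21) and decorin (Dcn) 1.14-fold higher (1.11 to 1.17), while the interval of Fmod, on 78 and 104 reads, includes 1. The latent TGF-beta complex, which Thbs1 is known to activate, had a median of 0.04. By 1.2-fold, 1 of its 8 members was higher, against 7.50% of all genes. That member was Tgfb2 (1.32-fold, 1.18 to 1.49; 647 reads in KXH and 525 in water), whereas the intervals of Tgfb1 and the binding protein Ltbp2 include 1. The secretory chaperones linked to Atf6, the sensor that Thbs4 binds in mouse heart, had a median of 0.10, with 14 of 15 ratios above 1, against 45.0% of all genes, and 2 at least 1.2-fold higher, against 7.50%. The 2 were Manf (1.27-fold, 1.05 to 1.54) and Sdf2l1 (1.27-fold, 1.01 to 1.61), Hspa5 stood at 1.198-fold (1.16 to 1.24), and Atf6 itself was at 25.2 RPKM in KXH and 25.4 in water. Proteases that cut matricellular proteins and their inhibitors had a median of -0.11, with 11 of 13 ratios below 1, against 55.0% of all genes, and 2 at least 1.2-fold lower, a share near the 12.1% of all genes. Adamts12 was 1.41-fold lower (1.30 to 1.53), Adamts4 had an interval that includes 1, and the inhibitor Timp2 was 1.196-fold higher (1.12 to 1.27).

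Markers of the cells that make these proteins also differed between the libraries, and their part in the members' differences was not tested. In bulk tissue, fewer cells of a type and less RNA per cell cannot be told apart. Fibroblast markers had a median of 0.12, with 3 of 9 at least 1.2-fold higher and 0 lower, against 7.50% and 12.1% of all genes. Their summed level was 1952 RPKM in KXH and 1820 RPKM in water (Clec3b, the other of the 10, had no row). Pi16 (1.46-fold), Tcf21 (1.41-fold) and Mfap5 (1.499-fold, 1.25 to 1.79) were the highest, and the other 6 had ratios from 0.966 for Pdgfra to 1.14 for Dcn. The ratios of Thbs1 and Postn lay between these 6 and the highest 3, that of Thbs4 above all 9, and the intervals of Thbs1, Postn and Thbs4 overlap those of the highest 3. Activated fibroblast markers had a median of 0.02, with Cilp 1.51-fold (1.21 to 1.89) and Col8a1 1.43-fold higher (1.29 to 1.59) and Acta2 1.35-fold lower (1.205 to 1.52). Their summed level was 62.3 RPKM in KXH and 62.8 in water. In that sum 2 large parts lay opposite ways. Acta2, which is also on the smooth muscle list, held 24.7 RPKM in KXH and 33.5 in water, and Col8a1 held 24.0 and 16.7. Smooth muscle and pericyte markers were lower, with a median of -0.22 and 3 of 8 at least 1.2-fold lower, against 12.1% of all genes. They summed to 407 RPKM in KXH and 464 in water. Myh11 was 1.53-fold and Tagln 1.38-fold lower (1.204 to 1.58). Endothelial markers had a median of -0.16, with Kdr 1.16-fold (1.12 to 1.21), Tie1 1.22-fold (1.15 to 1.29) and Flt1 1.23-fold lower and a sum of 431 RPKM in KXH and 486 in water.

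Platelets carry much thrombospondin 1 protein, and 7 of 9 platelet markers were listed, at a summed level of 29.9 RPKM in KXH and 33.7 in water. Only 3 had a mean of at least 1 RPKM (median -0.16), Ppbp had 0 reads in KXH and 1 in water, and Itga2b and Tubb1 had no row. Pf4 stood at 25.1 against 28.1 RPKM, and Gp1ba was 1.44-fold lower (1.08 to 1.93). Erythroid markers had a median of -0.56 (Hbb 1.47-fold, Alas2 1.58-fold and Slc4a1 1.81-fold lower; sum 2266 RPKM in KXH and 3332 in water), and macrophage markers one of -0.08 (sum 274 and 288 RPKM). Of 6 epicardial markers 4 were measured, with a median of 0.30 and a sum of 23.6 RPKM in KXH and 19.96 in water. Msln was 1.42-fold higher (1.19 to 1.69). The intervals of Upk1b, Krt19 and Wt1 include 1, and the ratio of Wt1 was below 1 (0.899). Over the epicardial markers averaging 5 RPKM or more the median was 0.16. Tendon, cartilage and valve markers had a median of 0.08 over 4 genes (sum 26.5 and 25.7 RPKM), and cardiomyocyte markers one of 0.03 over 8 (sum 31691 and 29732 RPKM).

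**Figure D5:**
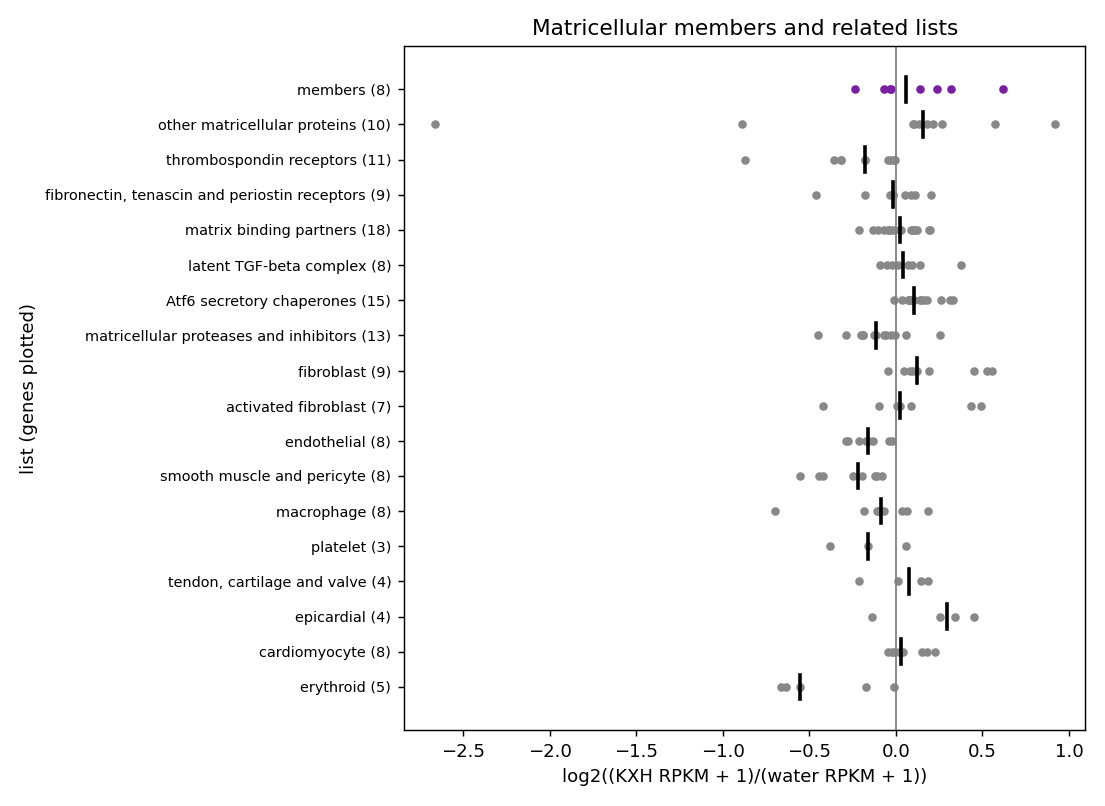
Log2((KXH RPKM + 1)/(water RPKM + 1)) of each gene averaging 1 RPKM or more (points), by list, with the number plotted in parentheses and the list median as a black bar. The 8 plotted members (purple, median 0.06) spread from -0.24 for Fn1 to 0.62 for Thbs4. The 11 thrombospondin receptors and binding proteins all lie below 0, from -0.87 for Cd36 to -0.006 for Cd47.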

How the data were processed

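Myocardial RNA of 2 libraries, 1 per group, was used, grouped by the agent in the labels. The deposited protein-coding tables hold whole unique read counts per gene, listed length, coverage and RPKM, per the file headers. The authors' RPKM equals the count per kilobase of listed length per 1000000 reads of the table. Coverage, given by the authors in percent, exceeds 100 for some genes, and is treated as another value that only describes depth. Bowtie 0.12.2 and rn6 are named in the submitters' processing notes, with no role. Which counter, annotation and strand setting were used is not given in the sources used here. Reads of an antisense overlap cannot be told apart. Genes absent from a table were taken as 0 reads. The deposited lncRNA tables served only for their total count.

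The members and lists were chosen with earlier results of these data known. Ratios are RPKM ratios with Clopper-Pearson 95% intervals on the KXH share of a gene's reads, which cover counting error only. PCR copies of a molecule were not told apart, so the intervals may be too narrow even for that error. Log2 ratios used RPKM + 1, with a filter of mean RPKM of at least 1. Gene quotients have exact conditional odds-ratio intervals. All 10 members are named, and up to 3 genes per list with the log2(RPKM + 1) ratio farthest from 0 among those passing the filter. Some others, such as Cd47, Atf6, Scx and Pdgfra, are named outside this rule. No test between groups was possible. Only the ratio and its interval were tested on simulated data, drawn as Poisson counts with known folds and no variation between animals. Quotients, list summaries and promoter matches were not tested in this way. RefSeq (GRCr8) promoters matched 8 of 10 members, without Thbs2 and Fn1. Trimmed-mean factors (TMM) came from edgeR 4.0.16. Other steps ran in Python 3.11.15 with scipy 1.17.1, pandas 2.3.3 and numpy 2.4.6, and figures were drawn with matplotlib 3.10.9.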

Additional observations from a re-analysis of the deposited data

How the results depend on the processing

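Pseudocounts, filters, scalings, the fold mark, removal of a length trend and leaving out each member in turn were tried. Of 90 recomputed member ratios, 79 moved by less than their counting interval, 9 by more and 2 turned sign, all 11 under scaling to fibroblast markers. The planned 6 markers lower every log2 ratio by 0.27 and leave Thbs1 at 0.06. There Thbs2 came to -0.12 and Postn to -0.027, the count of members at least 1.2-fold higher was 1 and lower 4, and the members' median was -0.21. All genes shift alike under such a scaling, so these counts and this median do not set the members apart from other genes. The whole list of 9, added after seeing the data, lowers ratios by 0.12. It turned no member ratio, the higher and lower counts were 1 and 1, and the median was -0.07. With no filter 2 members were at least 1.2-fold lower. With totals that leave out the 20 most abundant genes 1 was, because Tnc then passed the filter. At a fold of 1.5 the higher count was 1, and at 1.1 the lower count was 1. Shares of all genes were computed only with the main filter and scaling, at 1.2-fold and 1.5-fold. The other counts have no such share beside them. The median of 0.06 fell below 0 in 8 of 20 alternatives: both fibroblast scalings, no filter (-0.03), totals without the 20 most abundant genes (-0.02), and leaving out Thbs1, Thbs2, Thbs4 or Postn (-0.03 each). Both fibroblast scalings subtract more than 0.06 from every gene, so the sign under them was fixed by the shift. No other member ratio changed sign; Thbs4 ranged from 0.35 to 0.69, Tnc from -0.75 to -0.35 and Fn1 from -0.50 to -0.19. Of 391 recomputed values of the related lists, 364 stayed within their bounds. Depth limits Comp (23 reads in all) and Tnc (169). No paired analysis was possible because each group has 1 library.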
